A study of Mus musculus with 12 samples.

Results

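The genes described here are 9 cytokine receptor genes of blood stem cells, Kit, Tek, Csf1r, Epor, Csf3r, Csf2rb, Il6ra, Il6st and Ifngr1. They were chosen by name as the probe sets of the array that carry a single gene symbol from this set. This gave 9 probe sets, 1 per gene, of 35474 on the array. The choice was made with earlier results of these data known. The RNA came from mouse hematopoietic stem cells (HSCs), cells of the marrow that renew themselves and make every kind of blood cell, and was hybridised to 12 arrays, 3 from 3 mice in each of 4 groups. The groups were males given estradiol (E2, the main estrogen), males given corn oil, females given E2 and females given corn oil. Every mouse was 2 to 3 months old and received 100 µL of corn oil under the skin, which held 2 µg of E2 in the E2 groups. The cells of all groups were sorted, 5000 to 7000 at a time, by the presence of c-kit, Sca-1 and CD150 and the absence of CD48 and lineage markers. The sources used here give neither the duration of the treatment nor the mouse strain.

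Cytokine receptors carry signals for survival, division and lineage choice from secreted factors into blood cells. Kit, Csf1r and Tek are tyrosine kinases that phosphorylate each other when their ligand brings them together. The other receptors have no kinase of their own and signal through JAK kinases and STAT transcription factors, which in turn induce SOCS proteins that dampen the signal. Stem cell factor, the ligand of Kit, is required for HSC maintenance in the marrow, and c-kit, the protein made from Kit, is itself 1 of the surface markers by which these cells were sorted.

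Arrays were alike in their overall values, with a median intensity between 143 and 159 and Spearman correlations between arrays of 0.963 to 0.987. Of the 14 HSC marker genes on the array, 14 lay above the filter on dim genes, a mean log2 value of 7.52 or an intensity of about 182. All 8 markers of mast cells or basophils lay below it. Mast cells are another cell type with high Kit. Of the 9 receptor genes, 7 passed the filter. Epor and Csf1r did not and are described by their values. A gene was called when its adjusted p was under 0.05 in limma's model over 9967 genes.

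With E2, Kit fell, and it was the only receptor gene of the 7 tested that was called in the comparison averaged over the sexes. Its intensity was 19.8% lower on average. The other 6 did not pass, with 4 log2 fold changes above 0 and 2 below. Over the array, 8.90% of genes were called in this comparison and 5.78% were called lower, so 1 of 7 is close to the background of the array. The median log2 fold change was 0.0032 over the 7 receptor genes and -0.01 over all genes tested.

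**Figure D1:**
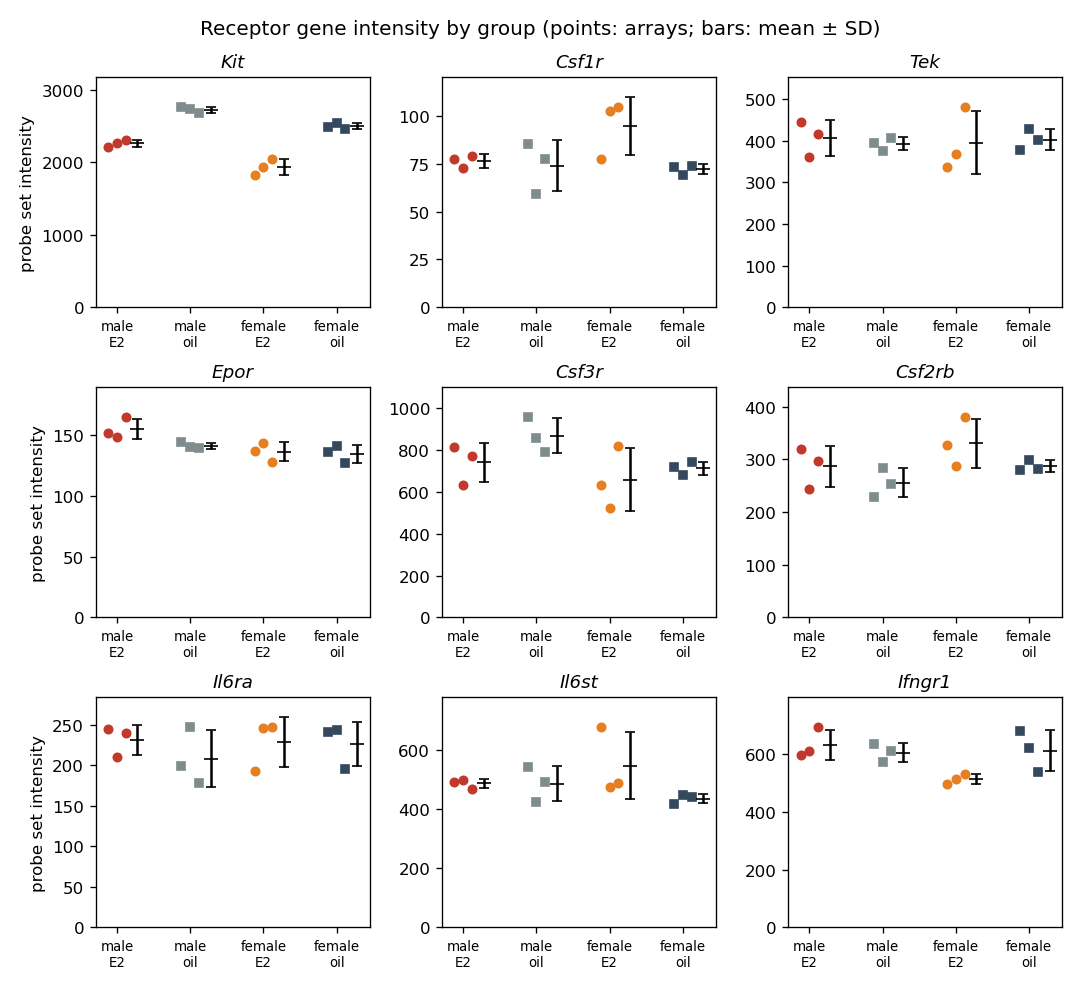
Probe set intensity (linear axes from 0) of each of the 9 receptor genes by group, with 1 point per array and the mean ± SD (n = 3) beside each group. For Kit the E2 arrays lie below the oil arrays in both sexes, at 2213 to 2313 with E2 against 2681 to 2756 with oil in males and at 1819.95 to 2046 with E2 against 2463 to 2539.9 with oil in females, whereas the groups overlap in at least 1 sex for each of the other 8 genes.

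Kit, on chromosome 5, had intensities of 2213, 2261 and 2313 in E2-treated males, against 2756, 2733 and 2681 in oil-treated males. In females it had 1819.95, 1935 and 2046 with E2, against 2489, 2539.9 and 2463 with oil. Every E2 array was below every oil array of the same sex, which held in both sexes for 4.88% of genes in this direction, and in females for 13.1%. No pair of the 4 groups overlapped, which held, with the groups in any order, for 14 of the 9967 genes (0.140%). For Kit the order with rising intensity was female E2, male E2, female oil and male oil.

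Kit had a log2 fold change of -0.32 ± 0.05 averaged over the sexes (SE; 95% interval -0.43 to -0.21; limma adjusted p = 0.0023). The averaged comparison is made of the same arrays as those within each sex, where 1.43% of all genes were called in males and 3.56% in females. The averaged call of Kit held in all 12 fits that left out 1 array and in the other 7 alternatives, where the adjusted p reached at most 0.00976. In females Kit fell by 0.37 ± 0.07 on the log2 scale (adjusted p = 0.0166), where 2.75% of genes were called lower. This call ended without female oil replicate 1, 2 or 3, with adjusted p of 0.0543, 0.0795 and 0.0567. It also ended without the filter on dim genes (adjusted p = 0.0557) and in a fit of the female groups alone (adjusted p = 0.132), at a log2 fold change of -0.37 in each. In males the log2 fold change was -0.27 ± 0.07 and did not pass (limma adjusted p = 0.107; unadjusted p = 0.003), whereas with array weights it did (-0.26, adjusted p = 0.0348). The difference between the responses was -0.10 on the log2 scale, female minus male, with a 95% interval of -0.33 to 0.12 (limma adjusted p = 0.954), where 0.0100% of genes were called, so the Kit effect was not shown to differ between the sexes.

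Kit intensity is set here beside the levels of several marker lists. The summed intensity of the 14 HSC markers, which include Kit, was 15681 to 16674 in E2-treated males against 18237 to 18349 in oil-treated males, and 14523 to 16467 in E2-treated females against 16533 to 17919 in oil-treated females. Of these 14 genes, 5 fell, namely Kit, Procr, Gata2, Tal1 and Esam, 0 rose and 9 did not pass, so that 35.7% were called, against 8.90% of all genes. The summed intensity of 6 progenitor markers was 2819 to 2960 in E2-treated males against 3368 to 4053 in oil-treated males, and 2586 to 2986 in E2-treated females against 3457 to 4081 in oil-treated females. The 7 megakaryocyte markers summed to 3030.25 to 3268 in E2-treated males against 3904 to 4249.9 in oil-treated males, and to 2398 to 3266 in E2-treated females against 3880.35 to 4172 in oil-treated females. The 8 mast cell or basophil markers, none above the filter, summed to 562 to 577 in E2-treated males against 658 to 688 in oil-treated males. In females they summed to 574 to 647 with E2 against 594 to 703 with oil. Cpa3 read 48.3 to 52.9 in E2-treated males against 63.4 to 82.7 in oil-treated males. It read 34.5 to 51.99 in E2-treated females against 58 to 78.2 in oil-treated females. Mcpt8 and Cma1 did not overlap in males only, both lower with E2. Tpsb2 did not overlap in females only, higher with E2, at 126 to 142 against 103 to 114 with oil. Over all 19935 genes, arrays did not overlap for 18.1% in males and 17.2% in females. All 4 progenitor markers that were tested fell, and of 6 megakaryocyte markers tested 4 fell and 1 rose (100% and 83.3% called, against the same 8.90%). The lists were chosen with earlier results of these data known, so their shares called are a description only. The 9 T or NK cell markers summed to 996 to 1082 in E2-treated males against 1308 to 1520.39 in oil-treated males, and to 1060.15 to 1094 in E2-treated females against 1273 to 1467 in oil-treated females. Of 3 of them tested, Nkg7, a granule protein gene of cytotoxic cells, fell by 1.67 on the log2 scale (limma adjusted p = 0.000182). It averaged 165 in E2-treated males against 573 in oil-treated males, and 173 in E2-treated females against 495 in oil-treated females. Cd3e and Cd4 did not pass, at log2 fold changes of -0.0097 and 0.087 (limma adjusted p = 0.952 and 0.592). The difference in these sums is thus mostly that of Nkg7 alone. The 6 B cell markers summed to 672 to 798 in E2-treated males against 790.23 to 1061 in oil-treated males, which overlapped, and to 688 to 708 in E2-treated females against 860 to 891 in oil-treated females, which did not. The single one tested, Cd79b, a chain of the B cell receptor complex, fell by 0.41 (limma adjusted p = 0.0199). It averaged 467 in E2-treated males against 589 in oil-treated males, and 396 in E2-treated females against 559 in oil-treated females. Cd79a, Ms4a1, Pax5, Ebf1 and Blnk lay below the filter and read 24.4 to 108 over all arrays. The B cell sums thus rest mostly on Cd79b. The mast cell or basophil sums overlapped in females and the B cell sums in males. Otherwise the sums named so far did not overlap between E2 and oil of the same sex. The 7 dendritic cell markers summed to 1576 to 1935 in E2-treated males against 1810 to 2060 in oil-treated males, which overlapped. In females their sums were 1575 to 2135 with E2 against 1744 to 2169 with oil, which also overlapped. Of 3 tested, Cd74 fell by 0.60 (limma adjusted p = 0.0291) and 2 did not pass. The endothelial, erythroid and granulocyte sums, given below, overlapped in both sexes as well. The HSC sums in females lay close, at most 16467 with E2 against at least 16533 with oil. They include Kit, at most 2046 with E2 against at least 2463 with oil in females. That gap therefore rests on Kit itself and is not a separate observation from the Kit result. The part of these lists in the Kit result was not tested. In sorted pools, fewer cells with high Kit and less Kit RNA per cell cannot be told apart.

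Among 9485 named genes above the filter, the 2 whose log2 values were most like Kit over the 12 arrays were Adgrg1 (Pearson r = 0.958) and Cyth1 (r = 0.957). Adgrg1 encodes an adhesion G protein-coupled receptor, and Cyth1 an exchange factor for ARF GTPases. Adgrg1 averaged 4102 in E2-treated males against 4714 in oil-treated males, and 3507 in E2-treated females against 4526 in oil-treated females. Cyth1 averaged 369 in E2-treated males against 470.3 in oil-treated males, and 304 in E2-treated females against 408 in oil-treated females. Both fell with E2 on average, at log2 fold changes of -0.28 and -0.39 (limma adjusted p = 0.00345 and 0.00587). These correlations are over arrays that share their 4 groups and are a description.

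The 250 bases before the annotated start of Kit are shown because Kit was the gene called. Those of Il6st and Epor are shown beside it for receptor genes that hold matches to the motifs searched. Sequences are from RefSeq (GRCm38.p6), which had promoter windows for 7 of the 9 genes. Capitals mark matches to the estrogen receptor core site GGTCA or the GATA site GATAA on either strand, so that TGACC and TTATC are their reverse complements. Kit is at chr5:75574737-75574986 on the plus strand, Il6st at chr13:112463820-112464069 on the plus strand and Epor at chr9:21963577-21963826 on the minus strand.
Kit: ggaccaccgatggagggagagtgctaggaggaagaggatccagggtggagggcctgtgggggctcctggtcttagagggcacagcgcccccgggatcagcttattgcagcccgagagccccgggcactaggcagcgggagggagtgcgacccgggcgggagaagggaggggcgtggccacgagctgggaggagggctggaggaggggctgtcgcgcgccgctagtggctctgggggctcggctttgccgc
Il6st: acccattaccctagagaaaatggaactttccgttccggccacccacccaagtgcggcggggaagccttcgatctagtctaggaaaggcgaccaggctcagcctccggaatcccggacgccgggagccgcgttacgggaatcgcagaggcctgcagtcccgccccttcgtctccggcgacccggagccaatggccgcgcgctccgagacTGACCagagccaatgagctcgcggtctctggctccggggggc
Epor: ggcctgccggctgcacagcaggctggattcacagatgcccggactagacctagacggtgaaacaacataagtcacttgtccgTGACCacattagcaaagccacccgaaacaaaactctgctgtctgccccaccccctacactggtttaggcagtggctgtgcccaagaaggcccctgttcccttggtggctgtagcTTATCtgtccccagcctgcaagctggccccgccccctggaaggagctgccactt

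The Kit window held no match to any of the 5 motifs searched. The full estrogen response element, GGTCA and its reverse complement with 3 bases between them, was in 0 of the 7 genes' windows and in 0.06% of 32851 windows of the same length over all genes. Its core site GGTCA, which is part of the full element, was in the windows of Tek, Epor and Il6st and in 35.2% of all windows. GATAA was in the windows of Epor and Il6ra and in 22.6% of all windows. The STAT site TTCNNNGAA was in 0 of the 7 and in 7.02% of all windows, and the E-box CANNTG was in 4 of the 7 (Tek, Epor, Il6ra and Il6st) and in 66.2% of all windows. Both strands were read for each motif, and a match is a description of these letters only.

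Tek, on chromosome 4, encodes the angiopoietin receptor TIE2, which is found on HSCs and endothelial cells. It had 444, 360.1 and 416 in E2-treated males, against 395, 375 and 406 in oil-treated males. Female arrays read 337, 368 and 479.8 with E2, against 377, 428 and 401 with oil. The groups overlapped in both sexes, and the averaged log2 fold change was 0.0032 ± 0.09 (SE; 95% interval -0.18 to 0.19; limma adjusted p = 0.987). The sign of so small a value turned under median centring, at -0.0086. Of 11 endothelial markers, 6 lay above the filter, namely Pecam1, Emcn, Plvap, Cldn5, Egfl7 and Eng, and 0 of them were called by limma (1 at an unadjusted p under 0.05). The other 5, Cdh5, Kdr, Stab2, Flt1 and Sox17, lay below it. The list summed to 4048 to 4485 in E2-treated males against 3982 to 4223 in oil-treated males, and to 4033 to 4464 in E2-treated females against 4136 to 4264 in oil-treated females. The part of endothelial cells in the Tek values was not tested.

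Csf1r, the receptor for colony-stimulating factor 1 on monocytes and macrophages, read 59.1 to 104 over the 12 arrays and lay below the filter. It had 77.4, 72.6 and 79.3 in E2-treated males, against 85.2, 59.1 and 77.3 in oil-treated males, which overlapped. In females it had 77.2, 103 and 104 with E2, against 73.5, 69.3 and 73.7 with oil, which did not overlap. In a fit without the filter its log2 fold change in females was 0.38 ± 0.14 and did not pass (limma adjusted p = 0.252), where 0.918% of all 19935 genes were called and 17.2% had female arrays that did not overlap. Of 8 monocyte and macrophage markers on the array, 2 lay above the filter, Cd68 and Lyz2. In females the means of 6 of the 8 were higher with E2 and those of 2 were lower. Ccr2, a chemokine receptor, read 111 to 207 in E2-treated females against 86.8 to 91.8 in oil-treated females, and Cd68 read 416 to 605 with E2 against 374 to 378 with oil, both without overlap and in the direction of Csf1r. Lyz2, the lysozyme gene, read 1243 to 1426 in E2-treated females against 1766 to 2149 in oil-treated females, the opposite direction. The sum of the list, of which Lyz2 is the largest part, was 2141 to 2475 in E2-treated females against 2578 to 2992 in oil-treated females. The part of these markers in the Csf1r values was not tested.

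Among the receptors without a kinase, the erythropoietin receptor Epor also lay below the filter. It had 152, 149 and 165 in E2-treated males, against 144, 141 and 139 in oil-treated males. Female arrays read 137, 144 and 128 with E2, against 137, 141 and 127 with oil. Its male arrays did not overlap, as held for 18.1% of all genes, whereas its female arrays did. Without the filter, the log2 fold change was 0.13 ± 0.09 in males and 0.07 ± 0.06 averaged over the sexes (limma adjusted p = 0.75 and 0.637), where 0.401% and 2.85% of genes were called. Of 8 erythroid markers, 3 lay above the filter. Tfrc, the transferrin receptor, rose by 0.36 ± 0.10 on the log2 scale on average (limma adjusted p = 0.0491), and Car1 and Car2, carbonic anhydrase genes, did not pass (33.3% called, against 8.90% of all genes). Tfrc passed in neither sex alone (limma adjusted p = 0.222 in males and 0.272 in females), and its female groups overlapped. The 5 below the filter, Klf1, Alas2, Slc4a1, Rhag and Ermap, read 50.55 to 251 over all arrays. The list summed to 3018 to 3460 in E2-treated males against 2781 to 3381 in oil-treated males, and to 3161 to 3918 in E2-treated females against 2793 to 3877 in oil-treated females. The part of these markers in the Epor values was not tested.

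Csf3r, the receptor for granulocyte colony-stimulating factor, had 814, 634 and 771 in E2-treated males, against 954, 855 and 789 in oil-treated males. In females it had 633, 521 and 820.2 with E2, against 716, 679 and 741 with oil. Groups overlapped in both sexes, and the female E2 arrays held both the lowest and the highest female value. The averaged log2 fold change was -0.18 ± 0.10 (SE; 95% interval -0.41 to 0.04; limma adjusted p = 0.294). It was -0.11 without female E2 replicate 2 and -0.27 without female E2 replicate 3 (adjusted p = 0.49 and 0.0583). The 13 granulocyte markers ranged widely within groups, with sums of 7564 to 13818 in E2-treated males against 8226 to 17653 in oil-treated males. In females the sums were 5623 to 15035 with E2 against 9769.87 to 22281 with oil. Of 8 tested, 0 lay above 0, with a median log2 fold change of -0.30. Prtn3 fell by 0.29 (limma adjusted p = 0.0315) and 7 did not pass (12.5% called, against 8.90% of all genes). The part of these markers in the Csf3r values was not tested.

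Csf2rb encodes the beta chain shared by the receptors for interleukin 3, interleukin 5 and GM-CSF. It had 319, 243 and 298 in E2-treated males, against 229.6, 284 and 253 in oil-treated males. Female arrays read 327, 287 and 379.9 with E2, against 280.2, 299.8 and 282 with oil. The groups overlapped in both sexes, with an averaged log2 fold change of 0.18 ± 0.09 (SE; 95% interval -0.01 to 0.37; limma adjusted p = 0.231). Csf2rb2, a closely related mouse gene, has a probe set of its own that read 204 to 256, and whether probes of either gene also bind RNA of the other was not tested.

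Interleukin 6 is bound by Il6ra, and Il6st encodes gp130, the signalling chain shared by the interleukin 6 family. Il6ra had 244, 210.2 and 239 in E2-treated males, against 199, 246 and 178 in oil-treated males, and 192, 246 and 247 in E2-treated females, against 241, 243 and 195 in oil-treated females. Its values overlapped in both sexes at levels close to the filter, with an averaged log2 fold change of 0.09 ± 0.10 (95% interval -0.12 to 0.30; limma adjusted p = 0.642). It was 0.034 without male oil replicate 3 and 0.15 without male oil replicate 2. Il6st had 493, 498 and 469 in E2-treated males, against 542, 426 and 491 in oil-treated males, which overlapped. In females Il6st had 676, 474 and 489 with E2, against 417, 448 and 443 with oil, so that all 3 E2 arrays were higher and replicate 1 stood far above the others. The log2 fold change of Il6st in females was 0.31 ± 0.13 and did not pass (95% interval 0.03 to 0.58; limma adjusted p = 0.212). Without female E2 replicate 1 it was 0.14 (adjusted p = 0.458).

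Ifngr1, on chromosome 10, is the ligand-binding chain of the interferon gamma receptor. It had 597, 608 and 692 in E2-treated males, against 633, 570.4 and 611 in oil-treated males, which overlapped. In females it had 495, 512 and 531 with E2, against 678, 619 and 537 with oil, which did not. The log2 fold change was -0.25 ± 0.10 in females (95% interval -0.46 to -0.04; limma adjusted p = 0.189) and 0.06 ± 0.10 in males (adjusted p = 0.832), so neither passed. The difference between the responses, female minus male, was -0.31 ± 0.14 on the log2 scale (unadjusted p = 0.0431; limma adjusted p = 0.929), and a difference between the sexes was not shown. Among the 7 receptor genes, 3 had female arrays that did not overlap, Kit and Ifngr1 lower and Il6st higher, and 1 had such male arrays, Kit. Over all genes tested the shares were 20.1% in females, with 13.1% lower and 6.95% higher, and 26.5% in males.

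**Figure D2:**
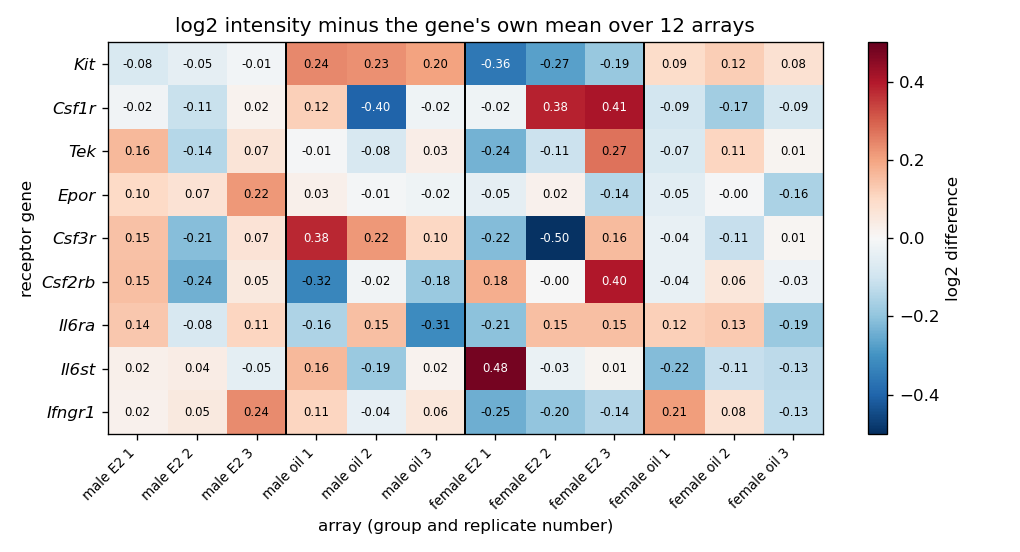
Log2 intensity of each receptor gene (rows) on each array (columns, by group and replicate number) minus that gene's own mean over the 12 arrays, with the difference printed in each cell and shown as colour. The Kit row is below 0 on all 6 E2 arrays and above 0 on all 6 oil arrays, whereas single arrays stand out for Il6st (0.48 on female E2 replicate 1) and Csf3r (-0.50 on female E2 replicate 2).

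The receptor genes did not vary as 1 unit over the 12 arrays, as the map of deviations by array shows. Of the 36 pairs, Kit and Csf3r had the highest Pearson correlation of log2 values (r = 0.638) and Kit and Csf2rb the lowest (r = -0.612). With each gene centred within its group, Csf3r and Tek correlated at 0.686 and Il6ra and Il6st, the chains of the interleukin 6 receptor, at -0.726. These are descriptions over arrays that share groups. Between females and males, 0 of the 7 were called under oil or under E2 by limma, with 0 under oil and 2 under E2 at an unadjusted p under 0.05. Over all genes 0.0401% were called under oil and 0.0100% under E2. The receptor genes at an unadjusted p under 0.05 were Kit, at a female minus male log2 difference of -0.23 ± 0.07 (adjusted p = 0.452), and Ifngr1, at -0.30 ± 0.10 (adjusted p = 0.452), both lower in females with no overlap, as for 8.72% of genes. Under oil, Kit and Csf3r were lower in females with no overlap, at -0.13 ± 0.07 and -0.28 ± 0.15 (limma adjusted p = 0.997 and 0.986), as for 7.29% of genes.

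**Figure D3:**
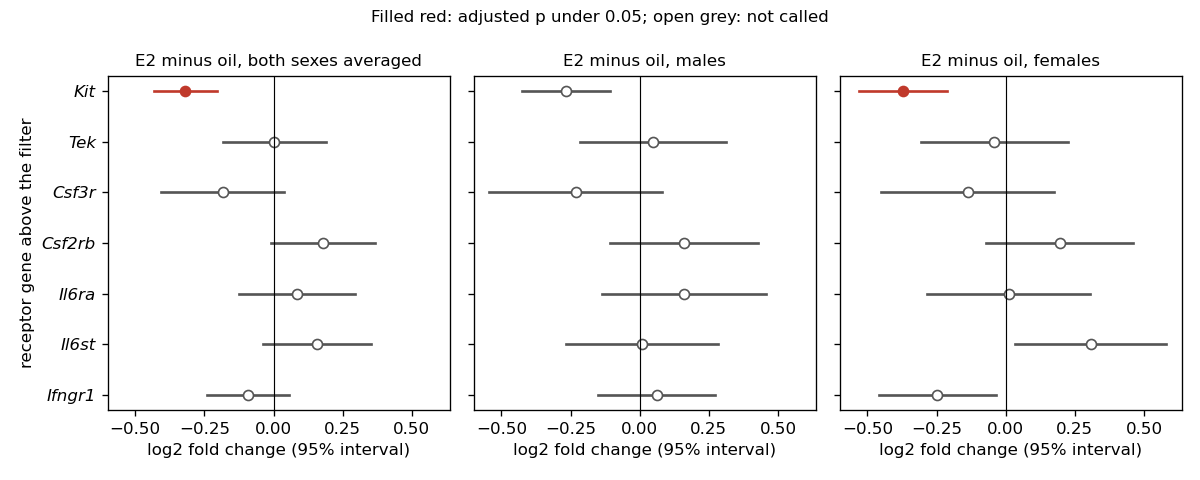
Log2 fold change of E2 minus oil with its 95% interval (x axis) for the 7 receptor genes above the filter (rows), averaged over the sexes, in males and in females. Filled red marks an adjusted p under 0.05, which Kit reached on average (-0.32) and in females (-0.37). The intervals of Il6st and Ifngr1 in females exclude 0 before adjustment only.

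Genes that act with these receptors were read from the same fit over all genes, in the comparison averaged over the sexes unless a sex is named. Their lists, too, were chosen with earlier results of these data known, so the shares called here and below are descriptions. Of 40 other receptor chains listed, 22 were tested, of which 0 rose, 4 fell and 18 did not pass (18.2% called, against 8.90% of all genes), with a median log2 fold change of -0.12 against -0.01 over all genes. Flt3, a tyrosine kinase receptor of early progenitors, fell by 1.10 ± 0.11 on the log2 scale (limma adjusted p = 8.17e-05). It averaged 145 ± 40.2 in E2-treated males against 297 ± 46.2 in oil-treated males, and 137 ± 5.64 in E2-treated females against 306 ± 23.7 in oil-treated females (SD, n = 3 each). The type I interferon receptor chain Ifnar1 fell by 0.25, the shared interleukin 10 family chain Il10rb fell by 0.34 and the orphan receptor Tie1, a partner of Tek, fell by 0.21 (limma adjusted p = 0.0224, 0.042 and 0.0467). Of these 4, Flt3 was called in all 12 fits that left out 1 array, Ifnar1 in 7, Il10rb in 4 and Tie1 in 3, so the count of 4 ranged from 1 to 5 over these fits. It was 1 without male E2 replicate 1 or male oil replicate 2 or 3, and 2 without male E2 replicate 2 or 3, male oil replicate 1 or female oil replicate 2 or 3. Without the filter on dim genes Ifnar1, Il10rb and Tie1 were not called (adjusted p = 0.0651, 0.0958 and 0.119). Il10rb was also not called under quantile normalization (0.0508) or median centring (0.0535), nor Tie1 under quantile normalization (0.0682), with array weights (0.0569) or with the replicate block (0.0682).

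Of 17 listed ligands, 2 were tested and 0 were called by limma (1 at an unadjusted p under 0.05). Of 9 JAK kinase and STAT genes tested, 0 were called (4 at an unadjusted p under 0.05), 2 lay above 0, and the median log2 fold change was -0.13. Without female E2 replicate 3, 2 of them were called. Of 23 inhibitors of receptor signalling tested, 1 rose, 2 fell and 20 did not pass (13% called, against 8.90% of all genes), with a median of -0.05. These 3 calls became 2 without male E2 replicate 2 or female oil replicate 2. Within each sex, 0 of the 23 were called in males and 2 in females. These are 0% and 8.7%, against 1.43% and 3.56% of all genes. Dok2, an adaptor that restrains kinase signalling in blood cells, rose by 0.39 ± 0.08 (limma adjusted p = 0.01). Socs7, a member of the SOCS family, fell by 0.35 ± 0.07 (adjusted p = 0.00982), and Inpp5d, which encodes the lipid phosphatase SHIP1, fell by 0.23 ± 0.05 (adjusted p = 0.0176). Inpp5d was not called without male E2 replicate 2, without female oil replicate 2 or without the filter, where its adjusted p reached 0.0572.

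Of 18 RAS-MAPK and PI3K genes tested, 2 rose, 3 fell and 13 did not pass (27.8% called, against 8.90% of all genes), with a median log2 fold change of 0.03. Within each sex, 1 of the 18 was called in males and 0 in females. These are 5.56% and 0%, against 1.43% and 3.56% of all genes. Pik3cd, the leukocyte catalytic subunit of PI3 kinase, rose by 0.40 ± 0.07 (limma adjusted p = 0.00476). It averaged 749 ± 29.8 in E2-treated males against 534 ± 57.1 in oil-treated males, and 681 ± 42.6 in E2-treated females against 554 ± 62.5 in oil-treated females. Dusp6, a phosphatase that switches off ERK, rose by 0.38 ± 0.09 (adjusted p = 0.0183). The adaptor Gab1 fell by 0.37 ± 0.07 (adjusted p = 0.00423), and Spry2, an inhibitor of receptor tyrosine kinase signalling, fell by 0.40 ± 0.09 (adjusted p = 0.017). The third gene that fell, Sos2, an activator of RAS, was at -0.24 (adjusted p = 0.0356) and is named after its value was seen. Without female oil replicate 2 or 3 the number called on average was 3, and Dusp6 was then not called, nor was it without male E2 replicate 3 (adjusted p of at most 0.0546).

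**Figure D4:**
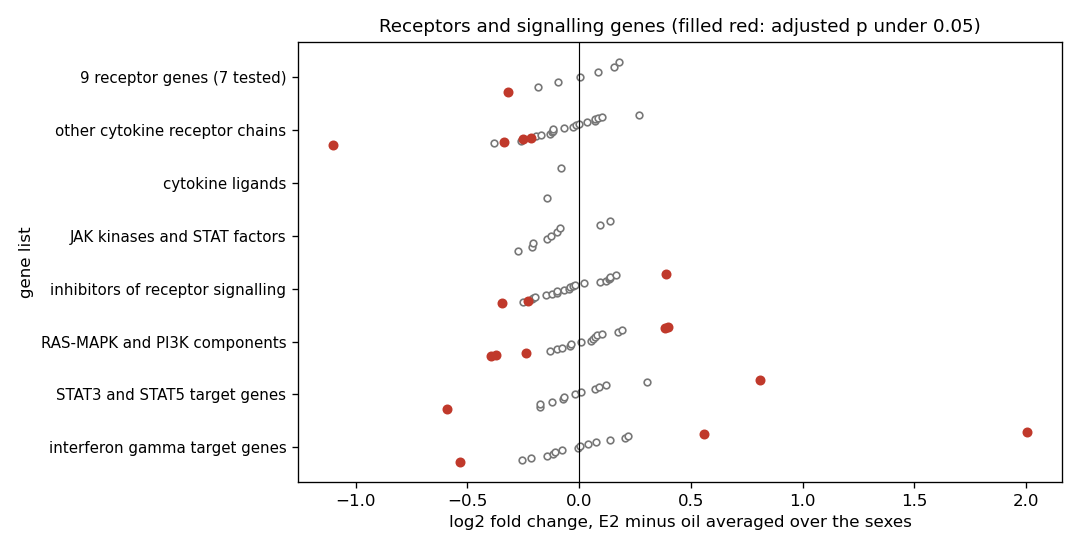
Log2 fold change of E2 minus oil averaged over the sexes (x axis) for each tested gene of the 9 receptor genes and of 7 lists of genes that act with them (rows; points are spread vertically by rank only to separate them). Filled red marks an adjusted p under 0.05. Kit at -0.32 is the only such point among the 9 receptor genes, whereas the list of other receptor chains holds 4. Gbp4 at 2.00 and Flt3 at -1.10 lie farthest from 0.

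Among target genes of the receptors, those called lay on both sides. Of 13 STAT3 and STAT5 targets tested, Pim1 rose, Junb fell and 11 did not pass (15.4% called, against 8.90% of all genes), with a median log2 fold change of -0.02. Pim1, a survival kinase, averaged 1380 ± 258 in E2-treated males against 702 ± 89.0 in oil-treated males, and 1578 ± 424 in E2-treated females against 992 ± 198 in oil-treated females. Its log2 fold change was 0.81 ± 0.14 (limma adjusted p = 0.0036). Junb, an AP-1 transcription factor, was at -0.59 ± 0.14 (adjusted p = 0.0163). It was at -0.79 in females (limma adjusted p = 0.0411) and -0.40 in males (0.358), where its groups overlapped. Of 16 interferon gamma targets tested, 2 rose, 1 fell and 13 did not pass (18.8% called, against 8.90% of all genes), with a median of -0.00048. The guanylate-binding protein gene Gbp4 rose by 2.00 ± 0.22 (adjusted p = 0.000114) and the peptide transporter gene Tap2 rose by 0.56 ± 0.13 (adjusted p = 0.0207), whereas the GTPase gene Irgm1 fell by 0.53 ± 0.11 (adjusted p = 0.00813). Irgm1 was at -0.87 in females (limma adjusted p = 0.0085) and -0.20 in males (0.587), where its groups overlapped. The 3 calls became 2 without male oil replicate 2 or female oil replicate 3. Tap2 was not called without male oil replicate 2, male E2 replicate 1 or female oil replicate 3, with adjusted p of at most 0.0537.

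For the 6 other receptor genes above the filter, the most alike genes over the 12 arrays were Zfp512 and Erlin2 for Tek (r = 0.881 and 0.867), Glul and Cnot6l for Csf3r (0.889 and 0.867), and Nol4l and Pcp4l1 for Csf2rb (0.849 and 0.843). They were Dmac1 and Clec4f for Il6ra (0.835 and 0.814), Ticrr and Rfwd3 for Il6st (0.892 and 0.888), and Plbd2 and Isg20 for Ifngr1 (0.922 and 0.92). Of these 12 genes, Pcp4l1 was called with E2 on average, at a log2 fold change of 0.47 (limma adjusted p = 0.0366), and the other 11 were not.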

How the data were processed

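Per the labels' protocols, RNA was amplified with a NuGEN Ovation Pico kit and labelled with biotin. The authors deposited intensity values of probe sets, on a linear scale, for 12 arrays of the Affymetrix Mouse Gene 1.0 ST platform. How they were summarised and normalized is not stated in the sources used here.

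Of 35474 probe sets, the 21780 with a single gene symbol were used, while 1605 had several and 12089 none. Each of 19935 genes was represented by its probe set of highest mean. Intensities were taken as log2 of the value plus 1, and genes with a mean above the median of genes (log2 of 7.52) were tested, which left 9967. Entrez identifiers of all 9 receptor genes matched RefSeq (GRCm38.p6), with unchanged symbols.

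All 12 arrays entered a linear model of the 4 group means in limma 3.58.1 (R 4.3.3, eBayes, 8 residual and 5.38 prior df). In each of 6 contrasts p-values were adjusted over all genes tested by Benjamini-Hochberg, and those under 0.05 after adjustment are referred to as called. The precision is limited by 3 arrays per group. Called genes were counted in the 7 pathway and 11 marker lists, with no test of a list as a whole. Up to 4 called genes per pathway list were named, together with the 2 genes most correlated with each receptor gene. Intensities of the marker lists were also summed per array, and single marker genes were named with their values. The receptor genes and lists were chosen with earlier results of these data known. Settings varied were the normalization (quantile or median centring), the offset (16), the filter (none), the probe sets (their mean per gene), array weights, the groups in the fit, the replicate number as a block, and the arrays (leaving out each of them). The steps were tested on simulated data. Same-numbered arrays did not deviate together between the male groups (correlations of at most 0.0719). Between the female groups the correlations were mixed, at 0.203, 0.168 and -0.177 for replicates 1, 2 and 3. The numbers were not taken to pair samples, with the replicate block as an alternative. Figures were drawn with matplotlib 3.10.9 in Python 3.11.15.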

Additional observations from a re-analysis of the deposited data

How the results depend on the processing

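For the comparison averaged over the sexes, the number of receptor genes called was 1 under every alternative run. In males it was 0, but 1 with array weights. In females it was 1, but 0 without the filter and in a fit of the compared groups alone, and from 0 to 1 with 1 array left out. In the other 3 comparisons it was 0 throughout. Over all genes, the number called on average was 887, 568 without the filter and 476 to 1147 with 1 array left out. In males it was 143, against 80 without the filter, 409 with array weights, 390 in the groups alone and 62 to 327 with 1 array left out. In females it was 355, against 183, 226, 67 and 115 to 549 in the same order. The response difference called 1 gene, and 1 to 2 with 1 array left out. Female against male under oil called 4, against 7 without the filter, with array weights and in the groups alone, and 2 to 8 with 1 array left out. Under E2 it called 1, against 4 without the filter and 1 to 17 with 1 array left out. The cause of these changes was not tested.

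Signs turned only for receptor genes that were not called in the comparison concerned. The log2 value became -0.00044 for Il6st in males under quantile normalization, and -0.0086 for Tek on average, -0.045 for Il6ra in females and -0.053 for the Csf2rb response difference under median centring. Under E2, female minus male became 0.0021 for Tek and 0.026 for Il6ra with array weights. With 1 array left out, Tek ran from -0.071 to 0.056 on average, -0.019 to 0.13 in males and -0.19 to 0.065 in females. Likewise Csf3r ran from -0.31 to 0.017 and Il6ra from -0.093 to 0.13 in females, and Ifngr1 from -0.0045 to 0.10 and Il6st from -0.085 to 0.089 in males. The response difference ran from -0.079 to 0.13 for Csf2rb, -0.078 to 0.25 for Csf3r and -0.24 to 0.018 for Tek. Female minus male ran from -0.090 to 0.095 for Il6ra, -0.016 to 0.24 for Il6st and -0.20 to 0.053 for Tek under E2, and from -0.067 to 0.10 for Ifngr1 and -0.011 to 0.080 for Tek under oil.

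With the replicate block, Kit stayed called on average (adjusted p = 0.0072) and in females (0.0368), not in males (0.162), and 1, 0 and 1 receptor genes were called. Correlations of the deviations of same-numbered arrays ran from -0.139 to 0.0719 between the male groups and from -0.177 to 0.203 between the female groups.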
